A study of Amolops torrentis with 15 samples.

Results

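Voltage-gated sodium and calcium channels were examined in whole brains of the torrent frog Amolops torrentis by RNA sequencing. Members were chosen by name and not by any measured value, though with earlier results of these data known. They are the assembled transcripts (features) whose deposited Swiss-Prot description begins as a sodium channel protein or sodium channel subunit, or names a voltage-dependent or voltage-gated calcium channel or a calcium channel subunit. Descriptions that begin as voltage-dependent calcium channel gamma subunits were left out. The rule found 102 of the 44351 features, which carry 26 of the 10546 gene symbols in the table, and the counts of features with the same symbol were summed to 1 value per gene.

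The 15 libraries fall into 5 groups of 3, named by the stimulus in the labels: acoustic, visual, audiovisual, dark contrast and blank contrast. All of them are whole brain, and the labels give no strain, age or further treatment. What frogs of either contrast group received is not in the labels, nor which contrast serves which stimulus, nor whether a library is 1 frog or several. The p-values below therefore cover only the spread among these libraries, which can be technical. Totals ran from 12071194 counts in dark contrast 1 to 16829356 in audiovisual 3, with dark contrast 3 next lowest at 12143927. The 26 genes together held 0.430% of all counts.

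Voltage-gated sodium channels open when a neuron's membrane is depolarised and carry the inward current that forms the rising phase of the action potential. Voltage-gated calcium channels open during that depolarisation and let in the calcium that triggers transmitter release, shapes firing and signals to the nucleus. In both families a large pore-forming subunit (alpha in sodium channels, alpha1 in calcium channels) is accompanied by smaller subunits (sodium channel beta, calcium channel beta and alpha2/delta) that alter its gating and its delivery to the membrane. The roles given below are known mainly from mammals, and each symbol is the nearest Swiss-Prot match of a frog transcript.

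None of the 26 channel genes differed between any of the groups at an adjusted p under 0.05 (edgeR's quasi-likelihood test, Benjamini-Hochberg adjustment over 34978 rows), and no other row of the table did either. Unadjusted p-values under 0.05 were found for 1605 to 1975 rows per comparison. DESeq2 called 11 to 144 rows per comparison and limma on log2(FPKM + 1) called 0, with no channel gene in either. SCN2A, the most abundant sodium channel alpha gene by summed FPKM, varied least across the 15 libraries as a sum of 15 features. Others such as CACNA2D1 varied widely within groups. The gene with the smallest p-values was CACNA2D2, an alpha2/delta subunit gene, which had its lowest group mean in the dark contrast libraries without passing the adjusted threshold. Its values and those of the other subunits follow by role.

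Levels were compared between genes only per length, in 2 ways: the deposited FPKM (fragments scaled for length and library total) summed over a gene's features, and counts scaled for library total after TMM (CPM) per kilobase of summed feature length. The sum of FPKM overstates a gene that the assembly broke into separate pieces. CPM per kilobase understates a gene whose features overlap, so the 2 orders can differ. They also differ for genes with 1 feature, such as SCN9A below, to which neither reason applies. The sodium channel alpha gene SCN2A, whose product lines axons in the mammalian brain, shows the gap. It was spread over 15 features of 36.8 kb in all, the longest of 7018 bases, and had 274 summed FPKM but 13.9 CPM per kb. By summed FPKM it ranked 2nd of 26, and by CPM per kb it ranked 7th. The gene above it by FPKM, CACNB3, falls to 45.8 FPKM without a feature described below that matches a transposon reading frame.

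**Figure D1:**
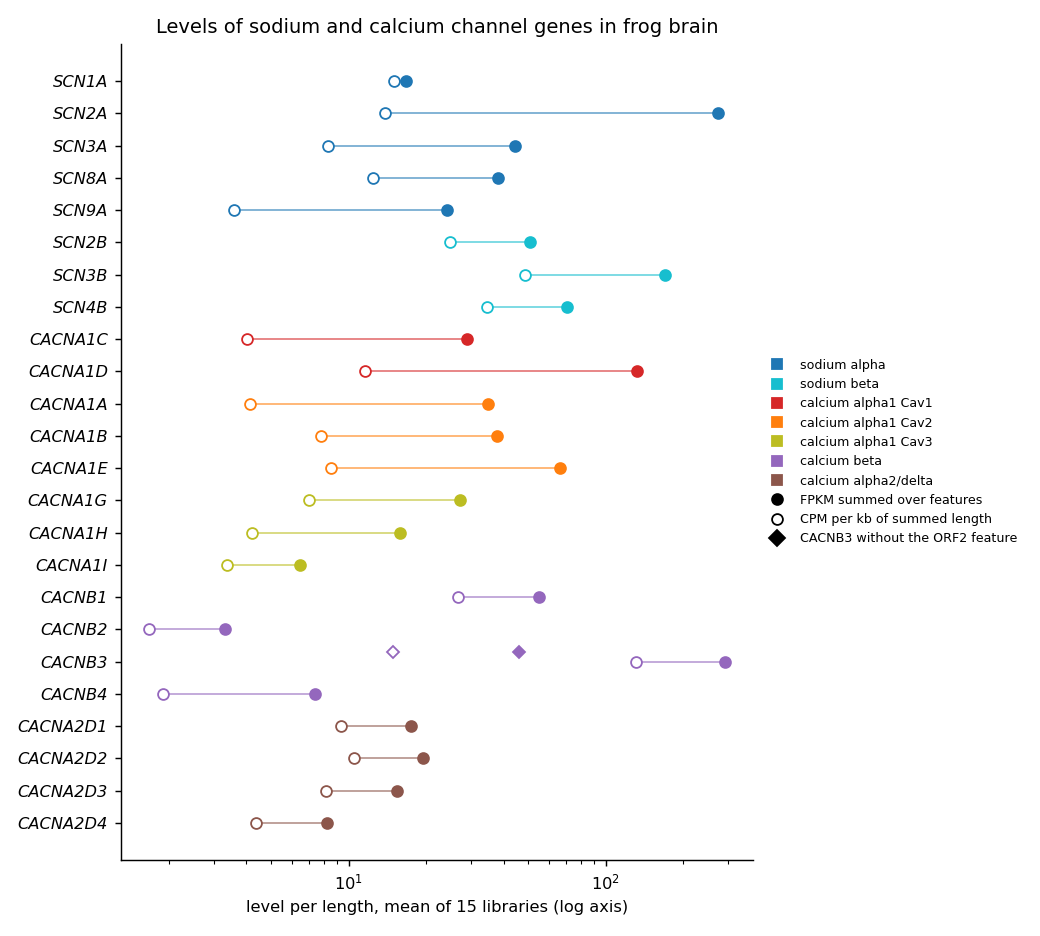
Level per length of 24 of the 26 channel genes (mean of 15 libraries, log axis) as FPKM summed over features (filled circles) and as CPM per kilobase of summed length (open circles), coloured by subunit role. CACNB3 is drawn both with all its features and, as diamonds, without the feature that matches a transposon reading frame; the filled and open points lie far apart for SCN2A, at 274 FPKM and 13.9 CPM per kb.

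SCN2A led the 6 sodium channel alpha genes by summed FPKM, but not by CPM per kb. On that scale SCN1A had 15.1, SCN2A 13.9, SCN8A 12.4 and SCN3A 8.31. SCN3A, known from embryonic neurons, had 44.1 FPKM, and SCN8A, the channel of nodes of Ranvier in adult mammals, had 38.0 FPKM. SCN1A, prominent in mammalian inhibitory interneurons, had 16.7 FPKM on a single feature of 1291 bases. SCN9A, a channel of peripheral sensory neurons, had 24.1 FPKM but only 3.57 CPM per kb. Both values rest on 1 feature of 283 bases with a mean of 14.3 counts per library.

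The identity of 3 alpha genes is uncertain. The features named SCN1A, SCN3A and SCN9A in Swiss-Prot all have sodium channel type 2 subunit alpha as their match in the deposited non-redundant protein (NR) description, and 1 short SCN2A feature has a type 8 subunit there. Reads of near-identical alpha genes could also be divided among them. The 4 symbols summed gave 583 ± 23.9 CPM in audiovisual, 579 ± 26.7 CPM in visual, 565 ± 11.8 CPM in acoustic, 547 ± 36.5 CPM in dark contrast and 593 ± 18.7 CPM in blank contrast libraries (SD, n = 3 each). SCN2A made up 89.0% of that sum, which is not scaled for length. Its features total 36.8 kb, against 1291 bases for SCN1A, so the share does not rank the genes by level. By this sum the lowest single library had 514 CPM and the highest 609 CPM.

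Among the sodium channel beta genes, SCN3B was the most abundant at 170 FPKM and 48.4 CPM per kb. SCN4B, whose protein takes part in resurgent sodium current in mammalian cerebellar neurons, had 70.9 FPKM. SCN2B, which like SCN4B is joined to the alpha subunit by a disulphide bond, had 50.7 FPKM.

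The calcium channel alpha1 genes covered all 3 families. Of the L-type (Cav1) genes, CACNA1D, which drives pacemaking and hair cell release in mammals, had 132 FPKM, and CACNA1C, the main L-type gene of heart and cortex, had 28.9 FPKM. Of the Cav2 genes, which serve presynaptic release, the R-type gene CACNA1E led with 66.3 FPKM, followed by the N-type gene CACNA1B with 37.8 FPKM and the P/Q-type gene CACNA1A with 34.7 FPKM. A feature of 729 bases counted under CACNA1A has an N-type subunit as its NR match, so the line between those 2 genes is not exact. The T-type (Cav3) genes, which open at low voltage and underlie burst firing, had 27.1 FPKM for CACNA1G, 15.8 FPKM for CACNA1H and 6.48 FPKM for CACNA1I.

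CACNB3, a cytoplasmic beta subunit gene, had the highest level of all 26 genes on both scales, at 290 FPKM and 132 CPM per kb. This level came from 1 feature of 7081 bases that held 94.0% of its counts and whose NR description names an ORF2, a reading frame of transposons, and not a channel. Without that feature, CACNB3 had 45.8 FPKM and 14.9 CPM per kb. Its remaining level ran from 104 to 133 CPM over the 15 libraries, and by summed FPKM it then lies below CACNB1, another beta gene, which had 55.1 FPKM. CACNB4, mutated in lethargic mice, had 7.42 FPKM, and CACNB2, a beta subunit of mammalian heart, was the least abundant member at 3.30 FPKM. Without the ORF2 feature, the channel genes together held 0.245% of all counts.

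The 4 alpha2/delta genes encode extracellular subunits that raise the number of calcium channels at the surface, and the products of CACNA2D1 and CACNA2D2 are the binding sites of gabapentin. CACNA2D2 had 19.5 FPKM, CACNA2D1 17.5 FPKM, CACNA2D3 15.4 FPKM and CACNA2D4, known from photoreceptors, 8.21 FPKM. The 3 highest of these lie close together, and on the CPM per kb scale they kept that order, at 10.5 for CACNA2D2, 9.29 for CACNA2D1 and 8.14 for CACNA2D3. The symbols SCN4A, SCN10A, SCN11A, CACNA1S and CACNA1F were carried by no feature analysed here. A gene at or near 0 in any library could not be seen, since the lowest deposited FPKM is 0.31.

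Variation across libraries differed widely among the channel genes. Their coefficient of variation (SD over mean of CPM, 15 libraries) had a median of 11.2%, against 30.2% for all 34978 rows tested. Among the 23 channel genes with a mean of at least 10 CPM the median was 9.39%, against 16.0% over the 11603 rows above that minimum, and 3 of the 23 lay above 16.0%. Levels above the minimum were not matched, and the channel genes are sums of up to 15 features, and 93 of 99 channel features varied more than their sum, while a row without a symbol is a single feature. The medians of members and rows are therefore not like for like. Of the 26 genes, 12 varied by under 10%.

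SCN2A varied least, by 4.39%. It had 495, 499 and 514 CPM in acoustic, 505, 499 and 540 CPM in visual, 526, 498 and 532 CPM in audiovisual libraries, 463, 525 and 479 CPM in dark contrast and 511, 538 and 535 CPM in blank contrast libraries. The lowest value was in dark contrast 1 and the highest in visual 3, and all 5 groups overlap. Its largest pairwise log2 fold change was -0.11 (SE 0.07, edgeR adjusted p = 0.911), between dark contrast and blank contrast. The 95% intervals of all 10 pairs stay within a 1.20-fold difference either way. The low variation is that of a sum of 15 features, which singly varied by 6.83% to 33.5%. The steadiest CACNB1 feature varied by 5.61%, so the rank of SCN2A holds for sums and not for single features.

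CACNA1E had group means close to each other, at 225 ± 4.28 CPM in audiovisual, 226 ± 14.5 CPM in visual, 227 ± 17.7 CPM in acoustic, 214 ± 36.9 CPM in dark contrast and 225 ± 6.59 CPM in blank contrast libraries (SD, n = 3 each). By library it had 218, 215 and 247 CPM in acoustic, 223, 242 and 213 CPM in visual, 230, 221 and 224 CPM in audiovisual libraries, 224, 246 and 174 CPM in dark contrast and 233, 220 and 224 CPM in blank contrast libraries. The wide dark contrast spread rests on dark contrast 3, the lowest of the 15 at 174 CPM.

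SCN3B, the leading beta gene, had 161, 184 and 210 CPM in acoustic, 163, 199 and 177 CPM in visual, 172, 215 and 148 CPM in audiovisual libraries, 188, 151 and 196 CPM in dark contrast and 139, 159 and 205 CPM in blank contrast libraries. Every group spans a wide range and all overlap. No pair differed by more than 0.14 on the log2 scale (SE 0.17).

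CACNB3 with all its features had 1909, 1917 and 2096 CPM in acoustic, 1979, 1859 and 2105 CPM in visual, 1963, 1941 and 2064 CPM in audiovisual libraries, 1956, 1934 and 2167 CPM in dark contrast and 2148, 1746 and 1853 CPM in blank contrast libraries. Without the ORF2 feature the group means were 120 ± 5.33 CPM in audiovisual, 117 ± 14.1 CPM in visual, 119 ± 7.63 CPM in acoustic, 116 ± 2.33 CPM in dark contrast and 117 ± 14.97 CPM in blank contrast libraries (SD, n = 3 each). With or without it, no group stands apart.

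At the other end, CACNB4 varied most, by 36.9%. It had 4.42, 4.87 and 4.40 CPM in acoustic, 9.91, 3.26 and 6.74 CPM in visual, 6.81, 9.79 and 8.30 CPM in audiovisual libraries, 3.37, 5.92 and 7.61 CPM in dark contrast and 4.80, 6.50 and 3.27 CPM in blank contrast libraries. Both the highest and the lowest value were visual libraries, and the gene rests on a mean of 86.2 counts. SCN9A varied by 31.0% at a mean of 1.01 CPM. It had 1.27, 1.06 and 1.01 CPM in acoustic, 0.953, 0.777 and 0.722 CPM in visual, 1.01, 0.714 and 1.01 CPM in audiovisual libraries, 1.85, 1.102 and 0.729 CPM in dark contrast and 1.08, 0.565 and 1.26 CPM in blank contrast libraries. These stand for as few as 8 counts in a library.

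CACNA2D1 also varied widely, by 30.3%, although it has 1188 counts per library on average. It had 84.3, 76.1 and 111 CPM in acoustic, 47.4, 75.2 and 102 CPM in visual, 118, 70.4 and 135 CPM in audiovisual libraries, 44.3, 79.4 and 85.0 CPM in dark contrast and 65.4, 64.4 and 81.9 CPM in blank contrast libraries. The spread within the visual, audiovisual and dark contrast groups is as large as the distance between group means. CACNB2, the least abundant gene, had 7.70, 10.9 and 5.21 CPM in acoustic, 11.1, 11.8 and 6.42 CPM in visual, 8.58, 10.002 and 6.33 CPM in audiovisual libraries, 5.56, 11.4 and 10.2 CPM in dark contrast and 5.65, 10.2 and 9.37 CPM in blank contrast libraries. Its groups overlap throughout.

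**Figure D2:**
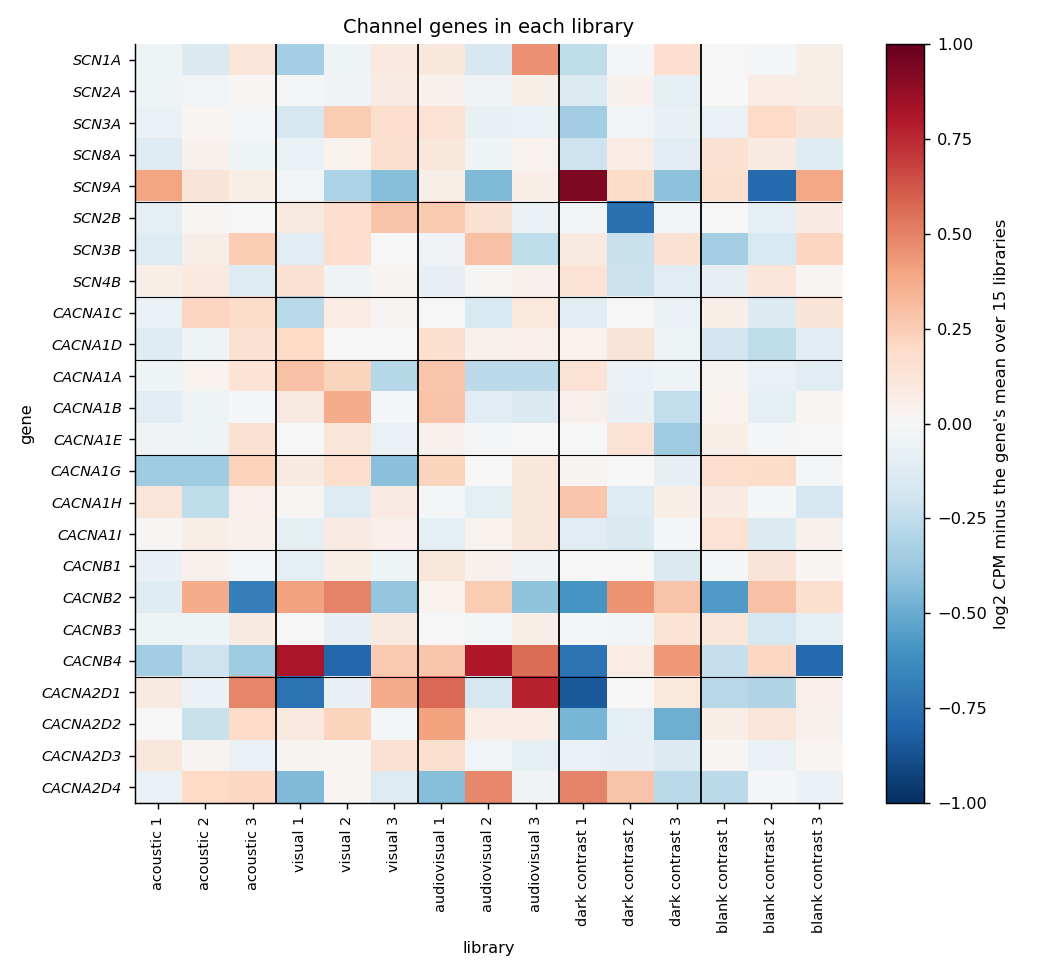
Each row is 1 of 24 channel genes and each column a library; colour is log2 CPM minus that gene's mean over the 15 libraries, on a scale from -1 to 1. Rows of SCN2A, CACNB1 and CACNB3 are nearly white, while CACNB4, CACNA2D1, SCN9A and CACNB2 change colour between libraries of 1 group.

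The width of the intervals sets what these libraries could show. For 16 of the 26 genes the 95% interval of the difference lay inside 1.5-fold for all 10 pairs of groups, and for 21 it lay inside 2-fold, before any allowance for the number of genes. The 5 exceptions included CACNB2, CACNA2D1, SCN9A and CACNB4, for which differences of up to 2.08-fold, 2.42-fold, 2.66-fold and 3.20-fold stay inside the intervals.

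Levels were also summed by role, with CACNB3 entering the calcium beta sum without its ORF2 feature. Sodium channel alpha genes summed to 699 ± 30.8 CPM in audiovisual, 695 ± 34.4 CPM in visual, 675 ± 13.4 CPM in acoustic, 656 ± 45.1 CPM in dark contrast and 709 ± 15.9 CPM in blank contrast libraries (SD, n = 3 each). Alpha2/delta genes summed to 306 ± 30.1 CPM in audiovisual, 265 ± 31.3 CPM in visual, 279 ± 28.0 CPM in acoustic, 238 ± 23.0 CPM in dark contrast and 256 ± 10.4 CPM in blank contrast libraries (SD, n = 3 each). Of the 7 role sums, the alpha2/delta sum had the widest relative distance between group means. The L-type alpha1 sum was 363 ± 16.2 CPM in audiovisual, 357 ± 9.24 CPM in visual, 357 ± 32.7 CPM in acoustic, 351 ± 18.2 CPM in dark contrast and 320 ± 20.0 CPM in blank contrast libraries (SD, n = 3 each). That sum follows CACNA1D, its larger member.

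The dark contrast group had the lowest mean of the 5 groups for 13 of the 26 channel genes: SCN2A, SCN3A, SCN8A, SCN2B, SCN4B, CACNA1C, CACNA1B, CACNA1E, CACNA1I, CACNB1, CACNA2D1, CACNA2D2 and CACNA2D3. It was the lowest group for 21.1% of all rows tested and for 24.8% of rows with a mean of at least 10 CPM. The count was 10 genes without dark contrast 1, against 24.4% of all rows and 26.3% of rows at 10 CPM or more. It was 12 genes without dark contrast 2, against 25.6% and 29.4% of rows in the same order, and 11 genes without dark contrast 3, against 24.4% and 27.8%. This count was chosen after the values were seen and carries no test. The summed level of neuronal marker genes was also lowest there, with 13 of 14 listed genes tested. It was 9399 ± 260 CPM in audiovisual, 9165 ± 321 CPM in visual and 9341 ± 252 CPM in acoustic libraries, against 8930 ± 309 CPM in dark contrast and 9349 ± 158 CPM in blank contrast libraries (SD, n = 3 each). Gene by gene the markers were split. In dark contrast against blank contrast, 6 of 13 had a log2 fold change above 0, with a median of -0.0006. Against dark contrast, 7 of 13 lay above 0 in acoustic, 9 in visual and 8 in audiovisual libraries. The part of these markers in the channel levels was not tested. In whole-brain RNA, fewer neurons and less channel RNA per neuron cannot be told apart.

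In acoustic against dark contrast libraries no channel gene was called, and 0% of all rows were, as in each comparison that follows. CACNA2D2 alone had an unadjusted p under 0.05, 1 of 26 genes against 5.05% of all rows. Libraries of the groups did not overlap for CACNA1I and CACNA2D3, both higher in acoustic, 2 of 26 genes against 10.2% of all rows. The median log2 fold change was 0.03 over the channel genes, and 16 of 26 genes lay above 0. DESeq2 called 21 rows (0.06%), none of them a channel gene.

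In visual against dark contrast libraries, 2 of 26 genes, CACNA2D2 and SCN2B, had an unadjusted p under 0.05, against 5.43% of all rows. SCN2B, CACNA2D2 and CACNA2D3 did not overlap and were higher in visual libraries, 3 of 26 genes against 10.7% of all rows. The channel genes had a median log2 fold change of 0.07, and 18 lay above 0. DESeq2 called 25 rows (0.0715%) and no channel gene.

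In audiovisual against dark contrast libraries, CACNA2D2 and SCN2B again had an unadjusted p under 0.05, against 5.42% of all rows. Only CACNA2D2 did not overlap, 1 of 26 genes against 10.8% of all rows. The median log2 fold change of the channel genes was 0.08, with 18 of 26 above 0. DESeq2 called 19 rows (0.0543%), without a channel gene among them. These 3 comparisons share the dark contrast libraries, so their values are not independent. Over all rows the median log2 fold change lay within 0.01 of 0 in each of the 11 comparisons that have one.

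CACNA2D2 gave the smallest p in each of the 3. It is the alpha2/delta gene strongly expressed in mammalian Purkinje cells and mutated in ducky mice. It had 82.8, 70.4 and 94.1 CPM in acoustic, 88.1, 95.9 and 81.2 CPM in visual, 109, 86.5 and 86.5 CPM in audiovisual libraries, 59.7, 77.2 and 58.8 CPM in dark contrast and 86.1, 89.5 and 84.8 CPM in blank contrast libraries. Dark contrast 1 and 3 are the 2 lowest libraries of 15, dark contrast 2 lies within the acoustic range, and the visual, audiovisual and blank contrast libraries are all above the dark contrast ones. Dark contrast 1 and 3 also had the lowest total counts of the 15 libraries, at 12071194 and 12143927. The part of depth in these values was not tested.

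The log2 fold change of CACNA2D2 was 0.53 in audiovisual against dark contrast libraries (SE 0.14, 95% interval 0.23 to 0.83, edgeR adjusted p = 0.909). It was 0.44 in visual against dark contrast (SE 0.14, adjusted p = 0.910) and 0.34 in acoustic against dark contrast (SE 0.14, adjusted p = 0.964). The unadjusted p-values were 0.0021, 0.0075 and 0.0307 in that order, and with 34978 rows tested none passed. Leaving out any 1 library kept the direction, with log2 fold changes of 0.41 to 0.66 in the audiovisual comparison and of 0.23 to 0.47 in the acoustic one. DESeq2 gave CACNA2D2 an adjusted p of 0.292 in audiovisual against dark contrast, the smallest of any channel gene by any of the tools.

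SCN2B, which falls outside the rule for named genes and was chosen after its values were seen, came next by p in the visual and audiovisual comparisons. It had 85.2, 91.5 and 90.8 CPM in acoustic, 96.9, 102 and 111 CPM in visual, 109, 101 and 86.8 CPM in audiovisual libraries, 89.4, 54.3 and 89.0 CPM in dark contrast and 91.2, 84.9 and 96.1 CPM in blank contrast libraries. A single library, dark contrast 2, sits at 54.3 CPM, and the other 14 lie between 84.9 and 111 CPM. Both SCN2B features were low there. The log2 fold change was 0.41 in visual against dark contrast (SE 0.16, adjusted p = 0.910), and 0.21 (SE 0.12, adjusted p = 0.836) without dark contrast 2. In audiovisual against dark contrast it was 0.35 (SE 0.16, adjusted p = 0.912), and 0.15 (SE 0.12, adjusted p = 0.878) without dark contrast 2.

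**Figure D3:**
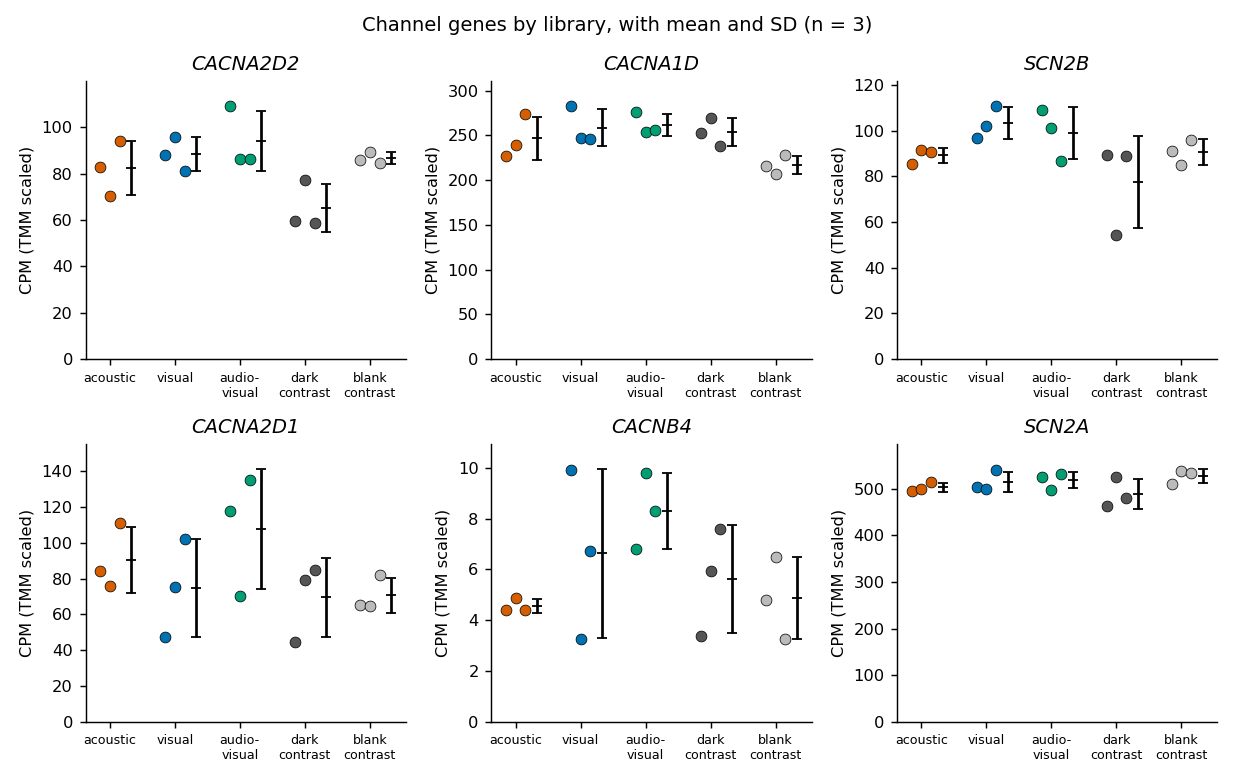
CPM per library (points) with group mean and SD (bars, n = 3) for CACNA2D2, CACNA1D, SCN2B, CACNA2D1, CACNB4 and SCN2A, in acoustic, visual, audiovisual, dark contrast and blank contrast libraries. Dark contrast is low for CACNA2D2 and blank contrast for CACNA1D, the low SCN2B group mean comes from 1 library at 54.3 CPM, and SCN2A is flat.

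Against blank contrast a different gene led. In acoustic against blank contrast libraries no channel gene had an unadjusted p under 0.05, against 4.61% of all rows, and none failed to overlap, against 9.91% of all rows. The median log2 fold change of the channel genes was -0.01, with 12 of 26 above 0. DESeq2 called 28 rows (0.0801%) and no channel gene.

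In visual against blank contrast libraries CACNA1D alone had an unadjusted p under 0.05, against 4.6% of all rows. SCN2B, CACNA1D and CACNA2D3 did not overlap and were higher in visual, 3 of 26 genes against 10.3% of all rows. The median log2 fold change was 0.03, with 18 of 26 genes above 0, and DESeq2 called 18 rows (0.0515%) with no channel gene. In audiovisual against blank contrast libraries CACNA1D was again the 1 gene with an unadjusted p under 0.05, against 4.59% of all rows. CACNA1D and CACNB4 did not overlap and were higher in audiovisual, 2 of 26 genes against 10% of all rows. The median log2 fold change was 0.02, with 15 of 26 genes above 0, and DESeq2 called 25 rows (0.0715%) with no channel gene.

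CACNA1D had 227, 240 and 274 CPM in acoustic, 283, 247 and 246 CPM in visual, 276, 254 and 256 CPM in audiovisual libraries, 253, 269 and 239 CPM in dark contrast and 216, 207 and 228 CPM in blank contrast libraries. Blank contrast 1 and 2 are the lowest of all 15 libraries, and blank contrast 3 lies just above acoustic 1. The log2 fold change against blank contrast was 0.27 in audiovisual (SE 0.09, 95% interval 0.07 to 0.48, unadjusted p = 0.0121, edgeR adjusted p = 0.9999) and 0.25 in visual libraries (SE 0.10, unadjusted p = 0.0182, adjusted p = 0.9997). It was 0.19 in acoustic libraries (SE 0.09, unadjusted p = 0.0696, adjusted p = 1). Without acoustic 3, the acoustic value was 0.10.

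Dark contrast and blank contrast libraries were also compared with each other. CACNA2D2 and CACNA1D had an unadjusted p under 0.05, 2 of 26 genes against 5.65% of all rows. Libraries did not overlap for 4 of 26 genes, against 11.2% of all rows. Among them CACNA1D was higher in dark contrast, and CACNA2D2 and CACNA2D3 were lower there. CACNA2D2 had a log2 fold change of -0.41 (SE 0.14, unadjusted p = 0.0110, adjusted p = 0.868 by edgeR), and CACNA1D one of 0.23 (SE 0.10, unadjusted p = 0.0315, adjusted p = 0.868). Their directions are opposite, and neither passed the adjusted test. The median over the channel genes was -0.06, against 0.01 over all rows, with 11 of 26 above 0, and ran from -0.06 to -0.02 with 1 library left out. DESeq2 called 23 rows (0.0658%) and no channel gene.

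Among the stimulus groups the differences were small as well. In acoustic against visual libraries 0 of 26 genes had an unadjusted p under 0.05, against 5.04% of all rows. SCN9A was higher in acoustic and SCN2B lower without overlap, 2 of 26 genes against 10.6% of all rows. CACNA1B had the smallest p. It had 66.0, 69.1 and 71.0 CPM in acoustic and 76.1, 92.4 and 70.6 CPM in visual libraries, and 86.8, 66.5 and 64.6 CPM in audiovisual libraries, 74.2, 67.8 and 60.3 CPM in dark contrast and 73.0, 67.2 and 72.3 CPM in blank contrast libraries. Visual 2 is the highest library of all. The log2 fold change in acoustic against visual was -0.21 (SE 0.14, edgeR adjusted p = 0.987), and -0.10 without visual 2. The channel genes had a median of -0.04, with 9 of 26 above 0, which ran from -0.06 to -0.02 with 1 library left out. DESeq2 called 22 rows (0.0629%) and no channel gene.

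Adding a visual stimulus to sound was addressed by audiovisual against acoustic libraries. CACNB4 had an unadjusted p under 0.05, 1 of 26 genes against 5.02% of all rows, and was also the 1 gene without overlap, against 10.3% of all rows. It averaged 8.30 ± 1.49 CPM in audiovisual libraries and 4.56 ± 0.265 CPM in acoustic libraries (SD, n = 3 each), a log2 fold change of 0.86 (SE 0.38, edgeR adjusted p = 0.979). Visual 1, at 9.91 CPM, and dark contrast 3, at 7.61 CPM, lie in or near the audiovisual range. The channel genes had a median of 0.04, with 17 of 26 above 0, and DESeq2 called 32 rows (0.0915%) and no channel gene.

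Adding sound to a visual stimulus was addressed by audiovisual against visual libraries, where 0 of 26 genes had an unadjusted p under 0.05, against 4.62% of all rows. No gene was without overlap, against 9.78% of all rows. CACNA2D1 had the smallest p, at 107.7 ± 33.5 CPM in audiovisual and 74.95 ± 27.4 CPM in visual libraries (SD, n = 3 each), a log2 fold change of 0.52 (SE 0.30, edgeR adjusted p = 0.9995). Without visual 1 it was 0.28. The channel genes had a median of 0.01, with 14 of 26 above 0. DESeq2 called 15 rows (0.0429%) and no channel gene.

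With the 3 stimulus groups pooled against the 2 contrast groups, 1 of 26 genes had an unadjusted p under 0.05, against 4.72% of all rows. This was CACNA2D2, with a log2 fold change of 0.23 (SE 0.09, unadjusted p = 0.0249, edgeR adjusted p = 0.9997). Above 0 lay 19 of 26 genes, against 49.9% of all rows, with a median of 0.04. The genes share the same libraries and are not independent, and all rows are not matched to them in level. No test was made of this count. By role, the log2 fold changes above 0 were 4 of 6 sodium alpha, 3 of 4 sodium beta, 2 of 2 Cav1, 3 of 3 Cav2, 1 of 3 Cav3, 3 of 4 calcium beta and 3 of 4 alpha2/delta genes. The largest was CACNA2D1 at 0.36 (SE 0.19), followed by CACNB4 at 0.27 (SE 0.25), and the lowest was SCN9A at -0.20 (SE 0.25). DESeq2 called 11 rows (0.0314%) and no channel gene. In the test of any difference among the 5 groups CACNA2D2 was the 1 gene with an unadjusted p under 0.05 (unadjusted p = 0.0224, edgeR adjusted p = 0.996), against 4.86% of all rows, and DESeq2 called 144 rows (0.412%) and no channel gene.

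**Figure D4:**
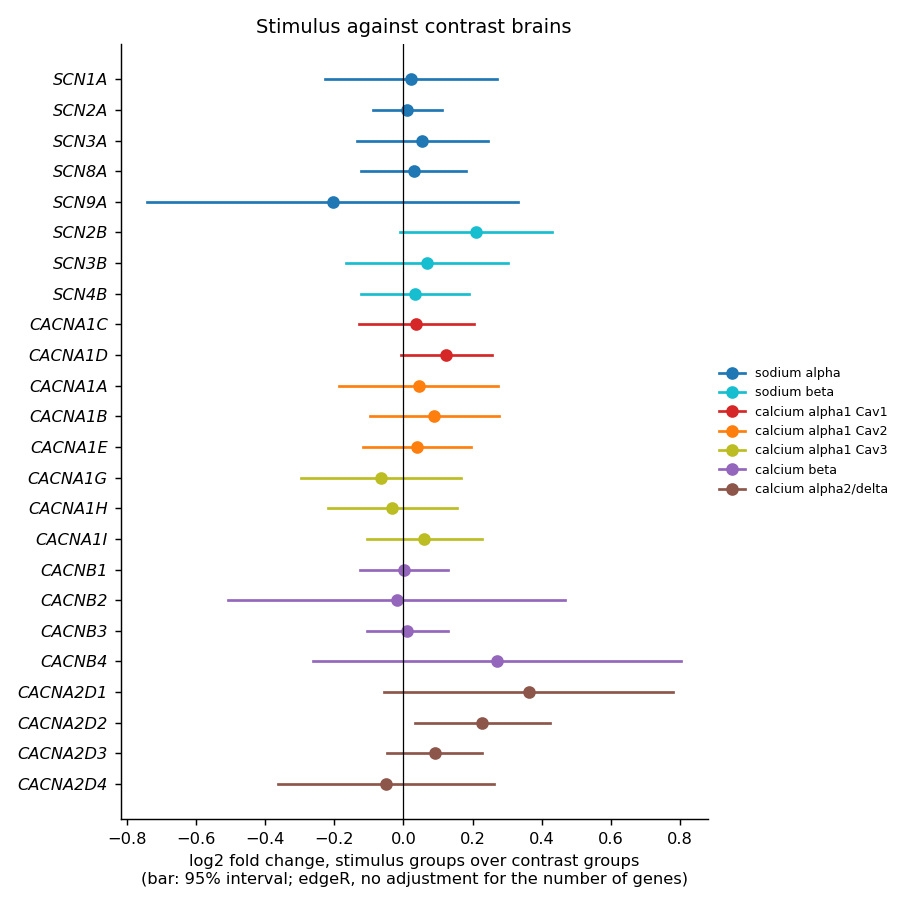
Log2 fold change of 24 channel genes in stimulus over contrast libraries (points) with its 95% interval by edgeR (bars, not adjusted for the number of genes), coloured by role. The CACNA2D2 interval, centred at 0.23, is the 1 interval that does not cross 0, and the widest belong to SCN9A, CACNB4 and CACNB2.

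Below the gene level, the assembled features varied more than their sums. Of the 24 genes with several tested features, 18 had every feature more variable than the gene's sum, and 93 of 99 such features exceeded their sum's coefficient of variation. A sum's coefficient of variation cannot exceed the largest among its features, so these counts lean that way by construction. The share among other genes is not given here. CACNA2D4 had the clearest gap between features and sum and was chosen for it after the values were seen. Its feature of 4100 bases had 5.88, 33.05 and 31.1 CPM in acoustic, 5.14, 18.4 and 7.85 CPM in visual, 13.0, 35.6 and 14.5 CPM in audiovisual libraries, 33.9, 17.9 and 8.67 CPM in dark contrast and 19.3, 13.7 and 31.2 CPM in blank contrast libraries. Its share of the gene ran from 17.4% in acoustic 1 to 92.3% in blank contrast 3. The features varied by 56.7% and 43.7%, and the gene's sum by 20.6%. Libraries high in 1 feature were mostly low in the other.

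CACNA2D2 also had 2 features, of 4221 and 3748 bases, and the longer held from 42.0% of the gene's counts in acoustic 2 to 85.3% in blank contrast 2. In dark contrast libraries the longer had 43.0, 49.6 and 33.9 CPM and the shorter 16.7, 27.6 and 25.0 CPM. The longer feature ran from 52.9 to 59.9 CPM in visual, 59.7 to 77.9 CPM in audiovisual and 55.2 to 76.6 CPM in blank contrast libraries, all above the dark contrast ones, as for the gene's sum. In acoustic libraries it had 56.0, 29.5 and 63.7 CPM, of which acoustic 2 lay below every dark contrast library. The shorter feature overlapped between groups, from 13.2 to 31.1 CPM in blank contrast libraries.

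CACNA1G, the most abundant T-type gene, had 86.8, 86.9 and 131 CPM in acoustic, 119, 125 and 83.3 CPM in visual, 130, 111 and 120 CPM in audiovisual libraries, 114, 111 and 105 CPM in dark contrast and 125, 126 and 110 CPM in blank contrast libraries. Acoustic 1, acoustic 2 and visual 3 are low. Its feature of 5589 bases had 16.98, 20.5, 16.3 and 24.2 CPM in acoustic 1, acoustic 2, visual 3 and dark contrast 3, and was between 41.8 and 66.2 CPM in the other 11 libraries. Its feature of 3074 bases stayed between 37.7 and 54.5 CPM throughout. Whether the features are splice forms, alleles or pieces of 1 transcript was not tested.

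Tested one by one over 42619 features, no channel feature was called. In audiovisual against dark contrast libraries 3 of 101 channel features had an unadjusted p under 0.05, against 5.23% of all features. The smallest p of any channel feature belonged to a CACNA1H feature of 3487 bases, with 14.5, 13.5 and 17.3 CPM in audiovisual libraries and 24.4, 18.9 and 24.6 CPM in dark contrast libraries. Its log2 fold change was -0.58 (SE 0.17, unadjusted p = 0.0045, edgeR adjusted p = 0.934). The other groups also lay above the audiovisual libraries, with 20.5, 19.9 and 25.5 CPM in acoustic, 23.9, 18.9 and 22.5 CPM in visual and 18.8, 18.4 and 20.3 CPM in blank contrast libraries. The feature was picked for its smallest p, and the share of all features that lie apart in this way is not given here. In audiovisual against visual its log2 fold change was -0.53, while a CACNA1H feature of 3467 bases went the other way, at 0.79 (edgeR adjusted p = 0.9997 for both). The gene as a whole did not follow, at 50.9 ± 3.68 CPM in audiovisual libraries and 53.6 ± 7.48 CPM in dark contrast libraries (SD, n = 3 each). In dark contrast against blank contrast libraries 5 of 101 features had an unadjusted p under 0.05, against 5.68%. In the test over the 5 groups it was 1 of 101, the CACNA1H feature of 3487 bases, against 4.74%.

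**Figure D5:**
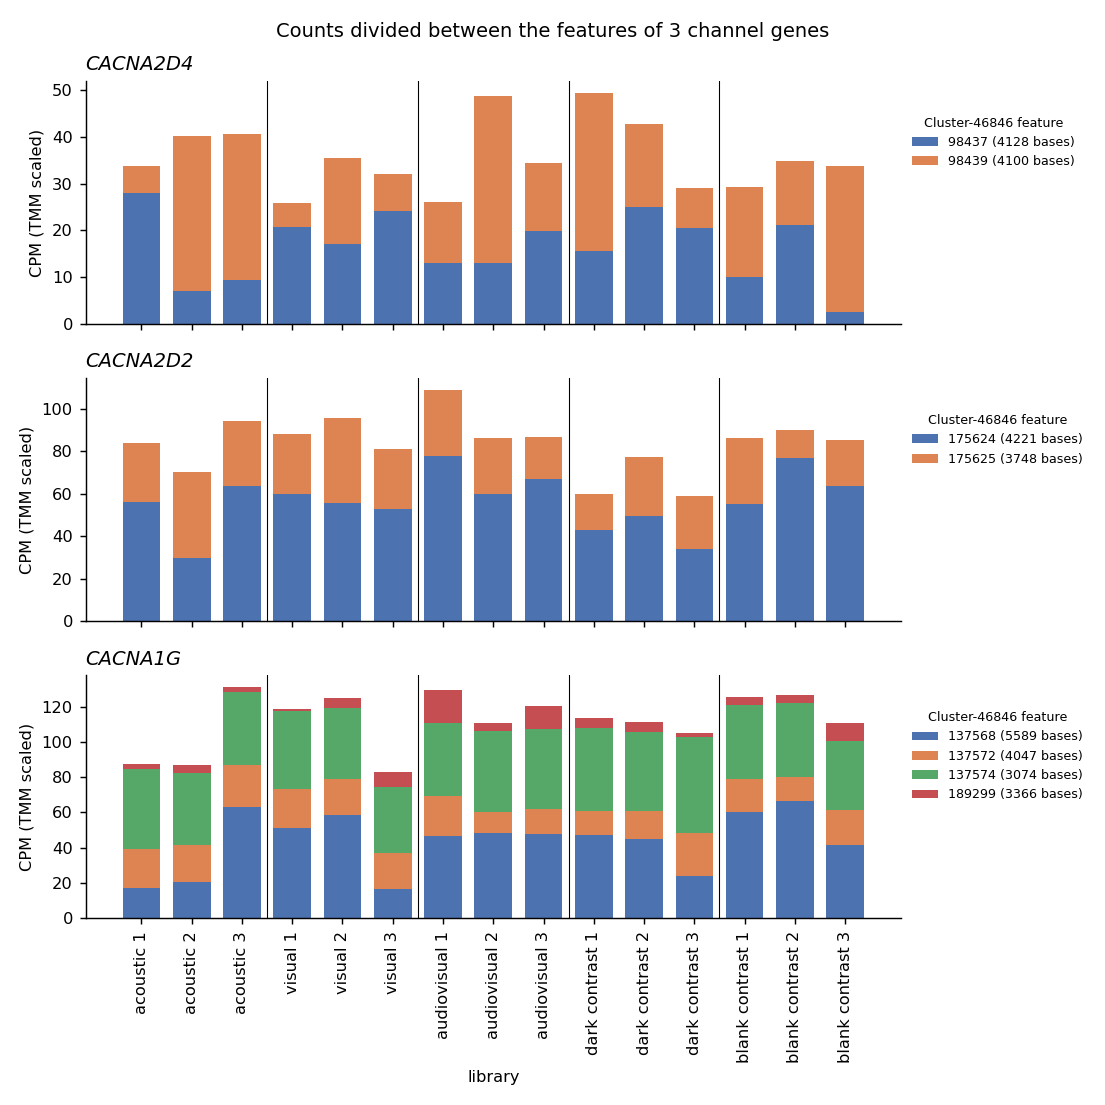
CPM of each library divided among the features of CACNA2D4, CACNA2D2 and CACNA1G (stacked bars; vertical lines part the groups). The 2 CACNA2D4 features trade places between libraries of the same group, and the 5589-base feature of CACNA1G is low in acoustic 1, acoustic 2, visual 3 and dark contrast 3.

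Genes of channel partners were examined as a list of 43 symbols, of which 33 were tested: intracellular FGF proteins that bind sodium channels, ankyrins and spectrin that anchor them, the sodium leak channel with its UNC79 and UNC80 partners, calcium channel gamma subunits, RIM proteins, RGK GTPases, STAC adaptors and calmodulin. None was called in any of the 12 comparisons, in either direction. The list summed to 5469 ± 398 CPM in audiovisual, 5313 ± 405 CPM in visual, 5424 ± 418 CPM in acoustic, 5184 ± 208 CPM in dark contrast and 5406 ± 219 CPM in blank contrast libraries (SD, n = 3 each). Calmodulin (CALM) alone made up a large part of the sum and of its spread, at 2353 ± 346 CPM in audiovisual, 2180 ± 363 CPM in visual, 2415 ± 452 CPM in acoustic, 2293 ± 143 CPM in dark contrast and 2349 ± 198 CPM in blank contrast libraries. TPCN2, a channel of endosomes and lysosomes, had the smallest p over the 5 groups (unadjusted p = 0.0154, edgeR adjusted p = 0.996). It had 1.74, 2.12 and 1.62 CPM in acoustic, 3.68, 9.87 and 4.41 CPM in visual, 4.16, 5.14 and 2.63 CPM in audiovisual libraries, 2.36, 7.99 and 4.21 CPM in dark contrast and 1.70, 2.12 and 3.27 CPM in blank contrast libraries. Visual 2 and dark contrast 2 stand above the others, at levels near the FPKM threshold.

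UNC80, a subunit of the sodium leak channel complex, came next (unadjusted p = 0.0356, edgeR adjusted p = 0.996). It had 200, 293 and 222 CPM in acoustic, 245, 301 and 255 CPM in visual, 317, 260 and 301 CPM in audiovisual libraries, 191, 217 and 188 CPM in dark contrast and 244, 168 and 257 CPM in blank contrast libraries. The audiovisual and visual libraries all lie above the dark contrast ones, and the acoustic libraries overlap all other groups. Of all rows, 10.8% did not overlap in audiovisual and 10.7% in visual against dark contrast. Over the 5 groups, 2 of the 33 partners had an unadjusted p under 0.05 by edgeR, against 4.86% of all rows.

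Markers of other tissues and cell types were read from lists of their own. Of 15 skeletal muscle genes 3 (CKM, TNNI2 and RYR1) were tested and summed to 49.7 to 93.4 CPM, and 2 of 9 cardiac genes to 1.21 to 3.31 CPM. Of 13 photoreceptor genes 1, GNAT2, was tested, at 9.46 to 27.0 CPM. Among brain cells, 5 of 9 oligodendrocyte genes summed to 5478 to 9255 CPM, 4 of 9 astrocyte and radial glia genes to 1688 to 3631 CPM and 3 of 9 microglia genes to 6.27 to 51.2 CPM. Of 11 erythrocyte genes, 2 summed to 364 to 1535 CPM. The pituitary genes POMC and CGA, 2 of 10 listed, ran from 19.6 CPM in visual 3 to 9585 CPM in audiovisual 3. No gene of these lists was called in any comparison. Their part in the channel values was not tested.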

How the data were processed

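RNA of 15 whole-brain libraries was made with Trizol and a NEBNext Ultra kit, per the labels' protocols. The authors deposited estimated counts per assembled transcript, not normalized, per the file headers, and FPKM scaled by the authors for length and library total. No source used here names the aligner, assembler or quantifier, and transcripts carry no genome position. Of the estimated counts 57.4% are whole to within 1e-06. Counts were rounded and summed per upper-case gene symbol of the deposited Swiss-Prot description, a transcript without a symbol being its own row (36374 rows). Rows with a mean summed FPKM of at least 1 were kept (34978), scaled by TMM and tested with edgeR 4.0.16 (R 4.3.3) by glmQLFit and glmQLFTest, with all 5 groups sharing 1 spread (common biological coefficient of variation 0.305; 10 residual degrees of freedom) and Benjamini-Hochberg adjustment over all rows at a threshold of 0.05. Standard errors are the log2 fold change over the square root of F, which is the size that test implies. DESeq2 1.42.0 and limma 3.58.1 served as alternatives, with other scalings, filters, a replicate block, single features and each library left out. The script was checked on simulated counts. Intervals of counts cover counting and library spread only.

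The members and gene lists were chosen with earlier results of these data known. Of the 26 members, 2 entered every fit, count and sum but are not reported here by name. Values by library are given for any called member, the member with the smallest p in each comparison, the most abundant by FPKM in each role, the 3 most variable and the least abundant, and for the 2 partner genes with the smallest p over the 5 groups.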

Additional observations from a re-analysis of the deposited data

How the results depend on the processing

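No channel gene was called under any of the alternatives, which cover scaling, filter, test, samples in the fit, single features, the replicate block and each library left out; the smallest adjusted p of a channel gene was 0.292 with DESeq2 and 0.591 without dark contrast 2. For all rows, the count of 0 by edgeR differed as follows. DESeq2 called 21 in acoustic, 25 in visual and 19 in audiovisual against dark contrast, 28, 18 and 25 in the same order against blank contrast, 23 in dark contrast against blank contrast, 22 in acoustic against visual, 32 in audiovisual against acoustic, 15 in audiovisual against visual, 11 in stimulus against contrast groups and 144 over the 5 groups. A fit to only the groups compared called 1 row in acoustic against dark contrast, 1 in acoustic against blank contrast and 1 in audiovisual against visual, and limma with pseudocount 0.1 called 1 in visual against blank contrast. Leaving out 1 library at a time gave 0 to 4 rows in acoustic against visual, 0 to 2 in audiovisual against blank contrast, acoustic and visual, and 0 to 1 in the other comparisons. The cause was not tested.

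The median log2 fold change of the channel genes moved by more than the spread between libraries (0.042) in visual against dark contrast with limma, to 0.0263 at pseudocount 1 and 0.0266 at pseudocount 0.1, and in audiovisual against blank contrast with single features, to -0.0275. It also did so in visual against dark contrast without dark contrast 1, to 0.0304. In audiovisual against blank contrast without audiovisual 1 it moved to -0.0266, a change of sign. With 1 library left out it ran from -0.0007 to 0.0667 in acoustic, 0.0304 to 0.0752 in visual and 0.04 to 0.10 in audiovisual against dark contrast, from -0.0266 to 0.0556 in audiovisual, -0.0155 to 0.0129 in acoustic and 0.0121 to 0.0433 in visual against blank contrast, from -0.0569 to -0.0236 in dark contrast against blank contrast, from -0.0553 to -0.0166 in acoustic against visual, from 0.0279 to 0.0696 in audiovisual against acoustic and -0.0091 to 0.0238 against visual, and from 0.0209 to 0.0461 in stimulus against contrast groups.

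Libraries with the same number did not deviate together (30 pairs of the same number, median r 0.0078, none over 0.1). With the number as a replicate block, 0 rows were called and CACNA2D2 had a log2 fold change of 0.53 in audiovisual against dark contrast (adjusted p = 0.912). Leaving out the ORF2 feature of CACNB3, an alternative chosen after seeing the data, gave no call. Depth limits the genes with few counts, SCN9A above all, and genes at 0 FPKM in any library are not analysed here.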
